A study of Mus musculus with 8 samples.

Results

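The ADAMTS genes encode secreted zinc metalloproteases with thrombospondin type repeats that act on the extracellular matrix. By symbol, 10 family genes were listed for this account, and 9 of these 10, of 24704 genes in all, were analysed: Adamts1, Adamts4, Adamts5, Adamts7, Adamts8, Adamts9, Adamts10, Adamts12 and Adamts15. The other listed gene was not analysed here. The list was selected from the family with the differences between these same arrays already in view, so the values of its genes are given as a description, with no p-value, and nothing is read from how many of them pass a threshold. No threshold on a value was stated for the list.

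Total RNA from cultured murine aortic VSMCs (vascular smooth muscle cells, which give the artery wall its tone) was hybridised to 8 single-colour Affymetrix arrays. Every culture grew in serum-containing medium, was exposed to an adenovirus for 24 h and was then given cholesterol at 10 µg/ml for 72 h, so no group was free of virus or of cholesterol. On 4 arrays the virus was AdPl, labelled as control, and on 4 it was AdN5, labelled as NFAT5 overexpression. The strain, sex and age of the animals and the promoter of the virus were not given in the sources used here, nor whether replicates were separate cultures, so a p-value covers the spread among these arrays alone, and that spread may be technical. Values are log2 levels made by RMA, on which a difference of 1 is a doubling, and fold changes are AdN5 minus AdPl.

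Matrix proteoglycans such as versican and aggrecan hold water and space between vascular cells, and ADAMTS proteases cut them at defined sites in their core proteins. Fibrillins, fibronectin, procollagens and cartilage oligomeric matrix protein are substrates of other branches of the family. In the artery these enzymes are known from work on aneurysm, atherosclerosis and the migration of smooth muscle cells. The proteases are made as inactive precursors, are cut by furin-like convertases, are glycosylated on their thrombospondin repeats and are held in check by the inhibitor TIMP3.

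The gene that the AdN5 virus is labelled to carry was not higher in those arrays. Nfat5, a transcription factor of the osmotic stress response, had levels of 7.06, 7.22, 7.11 and 7.25 in the AdPl arrays and of 7.06, 6.95, 6.98 and 6.88 in the AdN5 arrays, a log2 fold change of -0.19 ± 0.078 (SE) with an exact two-sided permutation p of 0.0571 over 70 assignments, where 0.0286 is the smallest possible. The direction thus went against the label, where the probes lie is not known here, and all directions below rest on the labels. The arrays are called those labelled AdN5 and AdPl. Pairs of arrays correlated at 0.989 to 0.993 across rows. Of 8 smooth muscle markers, Acta2 had a mean level of 12.04 and Tagln of 8.39 in the AdPl arrays, while Myocd (3.30) and Des (3.73) lay below 3.76, the median row of an array.

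Because NFAT5 is a DNA-binding factor, the promoter of the gene that stood furthest below the controls, Adamts1, is shown beside that of Adamts9, which stood furthest above them among the 9. RefSeq promoters of the mouse assembly GRCm38.p6, from 250 bases before the start site to 50 bases into the gene, were at hand for 3 of the 9 genes. The first lies at chr16:85803064-85803363 and the other at chr6:92943485-92943784, both on the minus strand, and capitals mark a match to TATAAA, the TATA box:
Adamts1: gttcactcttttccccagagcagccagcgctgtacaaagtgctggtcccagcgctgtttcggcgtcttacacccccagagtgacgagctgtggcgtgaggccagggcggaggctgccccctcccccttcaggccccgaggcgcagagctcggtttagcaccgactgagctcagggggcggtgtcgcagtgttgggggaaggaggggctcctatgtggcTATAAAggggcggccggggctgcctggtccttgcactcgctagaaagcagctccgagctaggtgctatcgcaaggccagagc
Adamts9: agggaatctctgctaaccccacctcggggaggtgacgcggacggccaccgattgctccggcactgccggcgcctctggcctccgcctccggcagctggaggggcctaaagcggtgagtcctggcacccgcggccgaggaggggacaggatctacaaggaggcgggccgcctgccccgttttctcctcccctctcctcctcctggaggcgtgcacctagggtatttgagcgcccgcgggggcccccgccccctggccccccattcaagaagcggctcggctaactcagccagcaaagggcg
The Adamts1 window held TATAAA 1 time, on the gene's strand, with its first base 32 bases before the start site, and 13.6% of 32851 promoter windows held this motif on either strand. The Adamts9 window held it 0 times. Of the core of the elements read by NFAT5 and the calcium-regulated NFAT factors, only the form with the letters TGGAAA was searched, on both strands. TGANTCA, the AP-1 element, was searched likewise. Neither occurred in the windows of Adamts1, Adamts9 or Adamts12, against 21.4% and 7.81% of all windows. With 1 match in all, no matches overlapped, and the lack of a match says only that these letters were not in these windows. The GC content was 64.7% for Adamts1, 70.0% for Adamts9 and 62.0% for Adamts12, against a median of 52.7% over all windows, with 18, 25 and 7 CpG dinucleotides against a median of 7.

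Adamts1 was lower on every array labelled AdN5. It encodes a protease that cuts versican and aggrecan, binds vascular endothelial growth factor and is required for the integrity of the mouse aorta. Its log2 levels were 9.87, 9.95, 9.88 and 10.00 in the AdPl arrays and 9.33, 9.24, 9.22 and 9.31 in the AdN5 arrays. The highest AdN5 array stood 0.53 below the lowest AdPl array, while the arrays of a group lay within 0.13 (AdPl) and 0.11 (AdN5) of one another. The log2 fold change was -0.65 ± 0.071 (SE), from a mean of 9.92 ± 0.061 to 9.28 ± 0.054 (SD, n = 4 each), so the AdN5 level was 0.638 of the control level. For the record, in the fit over all genes 1 of the 9, Adamts1, was past an adjusted p of 0.05 in limma, at which 0.777% of all genes were called, 0.413% lower and 0.364% higher; since the list was selected with this contrast in view, nothing is read from that count. With a variance trend and robust estimation Adamts5 passed as well, 2 of 9, where 3.16% of all genes did. Without AdPl replicate 3 and AdN5 replicate 4 together 0 of the 9 passed, with 0.121% of all genes called, although the log2 fold change of Adamts1 was then -0.67.

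**Figure D1:**
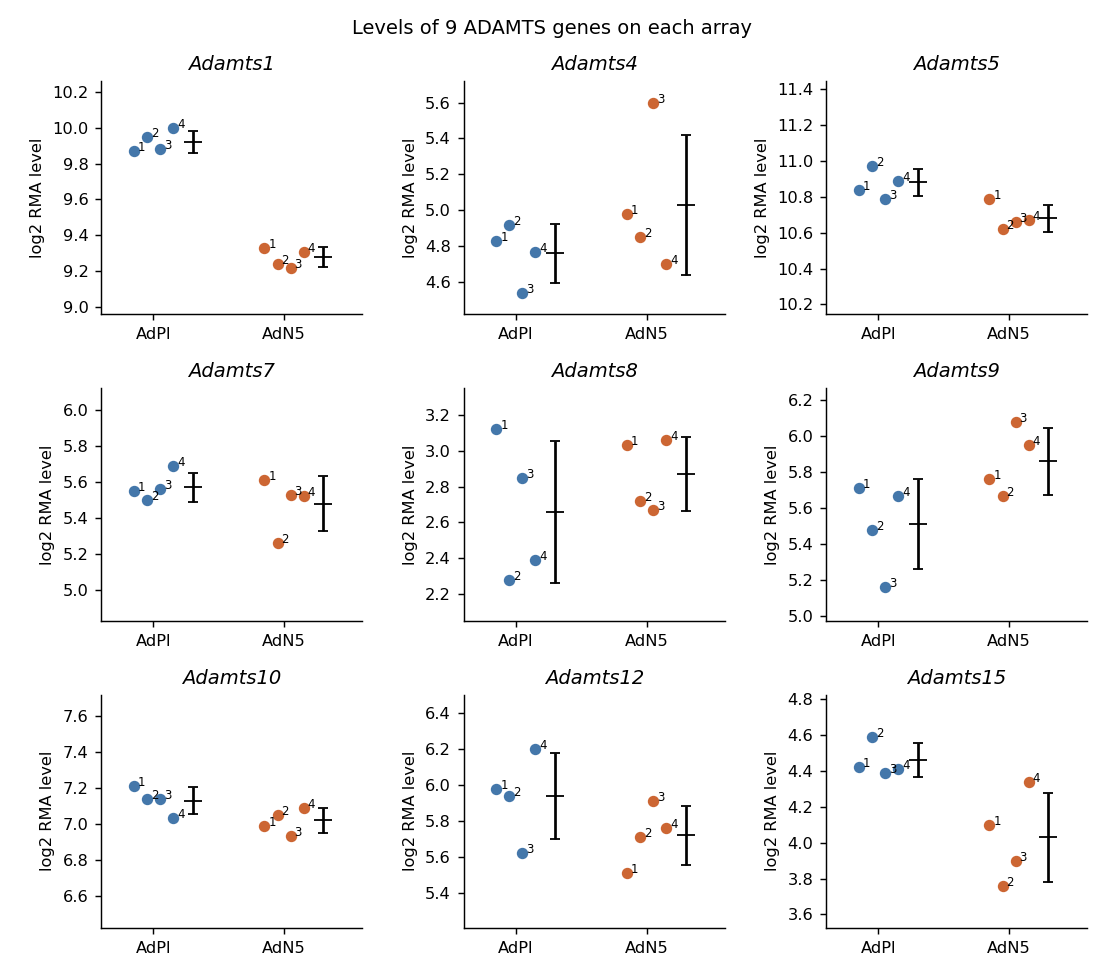
Log2 RMA level (vertical axis, 1.3 units in each panel) of the 9 analysed genes on the 4 AdPl and the 4 AdN5 arrays; points are arrays with their replicate number, and bars are the mean and SD of each group. The groups are 0.53 apart for Adamts1, 0.0073 apart for Adamts5 and 0.059 for Adamts15, and overlap for the other 6 genes.

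Adamts5 lies next to Adamts1 on mouse chromosome 16 with only the noncoding gene 4930556C24Rik between them in the RefSeq table, and it encodes a major aggrecanase that also cuts versican. Its levels were 10.84, 10.97, 10.79 and 10.89 in the AdPl arrays and 10.79, 10.62, 10.66 and 10.67 in the AdN5 arrays. All AdN5 arrays were below all AdPl arrays, but the nearest of them, AdN5 replicate 1 and AdPl replicate 3, were 0.0073 apart. Its log2 fold change of -0.19 ± 0.076 (SE) came from means of 10.88 ± 0.077 and 10.68 ± 0.074 (SD, n = 4 each), a level of 0.874 of the control. The neighbours thus stood on the same side of their controls, with values of -0.65 and -0.19.

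Adamts15, a versican-cutting protease described in developing muscle, came second to Adamts1 in the size of its difference. Its AdPl arrays read 4.42, 4.59, 4.39 and 4.41 and the AdN5 arrays 4.10, 3.76, 3.90 and 4.34. AdN5 replicate 4 stood only 0.059 below the lowest AdPl array, and the AdN5 arrays spanned 0.57, more than the 0.20 of the AdPl arrays. The log2 fold change was -0.43 ± 0.12 (SE), a level of 0.742 of the control, and it was -0.53 without AdN5 replicate 4 and -0.34 without AdN5 replicate 2. Across the 9 genes 3 had AdN5 below AdPl with no overlap, as did 4.56% of all genes, and 0 had AdN5 above with no overlap, as did 4.22%.

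Adamts8, the direct neighbour of Adamts15 on chromosome 9, did not go the same way, but it was dim. It encodes a protease first described for its action against vessel growth. Its levels of 3.12, 2.28, 2.85 and 2.39 in the AdPl arrays and of 3.03, 2.72, 2.67 and 3.06 in the AdN5 arrays were all below the median row of an array. The groups overlapped, and AdPl replicates 1 and 2 were 0.84 apart. The log2 fold change of 0.21 ± 0.19 (SE) was 0.36 without AdPl replicate 1 and 0.081 without AdPl replicate 2, so the difference was not measurable beyond the spread of the controls.

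The remaining proteoglycan-cutting members, Adamts4 and Adamts9, were above the controls in their means. Adamts9 encodes a versicanase that works at the cell surface and in the growth of vessels. It read 5.71, 5.48, 5.16 and 5.67 in the AdPl arrays and 5.76, 5.67, 6.08 and 5.95 in the AdN5 arrays, a log2 fold change of 0.36 ± 0.14 (SE) or 1.28 times the control. The groups overlapped by 0.044, at AdN5 replicate 2 and AdPl replicate 1. AdPl replicate 3 was the low array, and without it the fold change was 0.24; without it and AdN5 replicate 4 it was 0.22, less by over 1.5 times.

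Adamts4 encodes an aggrecanase induced by inflammatory cytokines in many cells. Its levels were 4.83, 4.92, 4.54 and 4.77 in the AdPl arrays and 4.98, 4.85, 5.60 and 4.70 in the AdN5 arrays. A lone array, AdN5 replicate 3, stood above all others, and AdN5 replicate 4 was below 3 of the 4 AdPl arrays. With all arrays the log2 fold change came to 0.27 ± 0.18 (SE), and to 0.081 without AdN5 replicate 3, so most of the mean difference came from that array.

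Adamts7 and Adamts12 form the branch that cuts cartilage oligomeric matrix protein, and Adamts7 is known from human genetics of coronary artery disease and from smooth muscle migration. Adamts7 levels were 5.55, 5.50, 5.56 and 5.69 in the AdPl arrays and 5.61, 5.26, 5.53 and 5.52 in the AdN5 arrays, a log2 fold change of -0.096 ± 0.093 (SE). The groups overlapped, and without AdN5 replicate 2, the low array, the fold change was -0.022. Adamts12 levels were 5.98, 5.94, 5.62 and 6.20 in the AdPl arrays and 5.51, 5.71, 5.91 and 5.76 in the AdN5 arrays, a log2 fold change of -0.21 ± 0.13 (SE). Here too the groups overlapped, and the value ran from -0.32 without AdPl replicate 3 to -0.12 without AdPl replicate 4. Comp, the gene of their shared substrate, had a level of 3.19 ± 0.238 in the AdPl arrays and 3.11 ± 0.2 (SD, n = 4 each) in the AdN5 arrays, below the median row.

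Adamts10 encodes a protease of fibrillin microfibrils, altered in a syndrome of short stature and lens dislocation. It read 7.21, 7.14, 7.14 and 7.03 in the AdPl arrays and 6.99, 7.05, 6.93 and 7.09 in the AdN5 arrays. The log2 fold change of -0.11 ± 0.075 (SE) kept within -0.14 to -0.084 when any array was left out, and the groups overlapped by 0.062.

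The lowest and highest array of each group were counted across the 9 genes only. AdPl replicate 3 was the lowest control array for 5 genes and the highest for 0, and AdN5 replicate 2 was the lowest of its group for 4 genes and the highest for 0. These are the most frequent low arrays of each group. The same count over all genes was not made, so no trait of an array is read from them. Both genes above their controls that were not dim, Adamts4 and Adamts9, had AdPl replicate 3 as their lowest array and AdN5 replicate 3 as their highest. The sign of the fold change was the same in 8 of 8 refits on 7 arrays for each of the 9 genes. For Adamts1, Adamts5 and Adamts15, whose groups do not overlap, this has to be so.

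**Figure D2:**
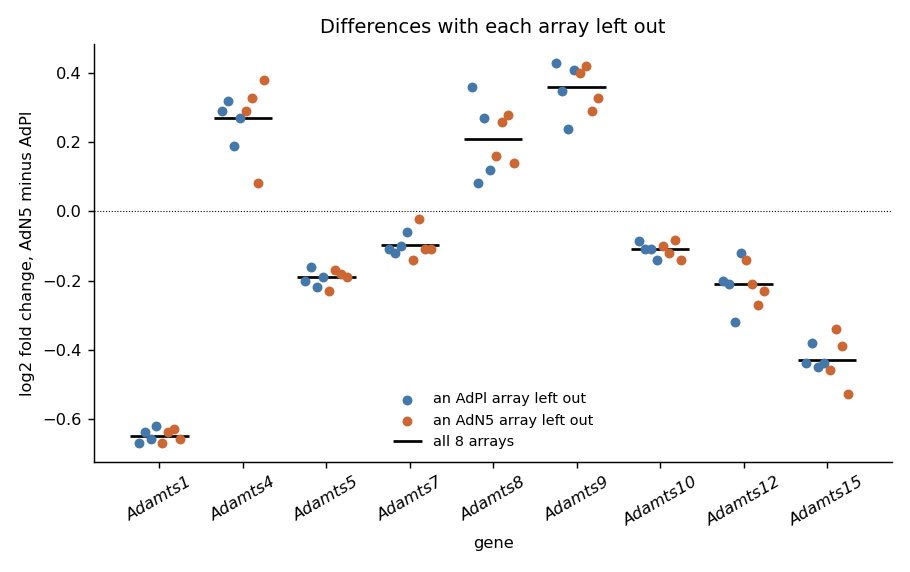
Log2 fold change, AdN5 minus AdPl (vertical axis), of the 9 genes with each array left out in turn; blue points leave out an AdPl array, orange points an AdN5 array, and the line is the value with all 8 arrays. Adamts1 stays between -0.67 and -0.62, while Adamts4 runs from 0.081 to 0.38 and Adamts8 from 0.081 to 0.36.

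The genes whose profile over the 8 arrays was nearest to that of Adamts1 were found among 12351 other genes above the median level, by the root mean square difference of log2 levels after each gene's mean was taken off. They were Ccn3 (0.0526), a matricellular protein of the CCN family, Sorbs2 (0.0706), an adaptor of actin and adhesion structures, Neat1 (0.0780), the noncoding RNA of paraspeckles, Epha7 (0.0794), an ephrin receptor, and Adhfe1 (0.0816), an alcohol dehydrogenase of mitochondria. Their log2 fold changes were -0.61, -0.61, -0.56, -0.67 and -0.55, with groups that did not overlap. Both follow from their choice by likeness to Adamts1 and are no separate result. Of all genes, 4.56% had AdN5 below with no overlap. Of the analysed members above the median level Adamts15 was nearest, at rank 171 with a root mean square difference of 0.179, and the neighbour Adamts5 was at rank 669 with 0.232. Adamts4 (rank 11854) and Adamts9 (rank 11876) were among the most distant of all genes ranked. Their AdN5 means were above the controls and that of Adamts1 below, so this measure places them far off. The ranks of the members restate the fold changes and spreads given above and are no further result.

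**Figure D3:**
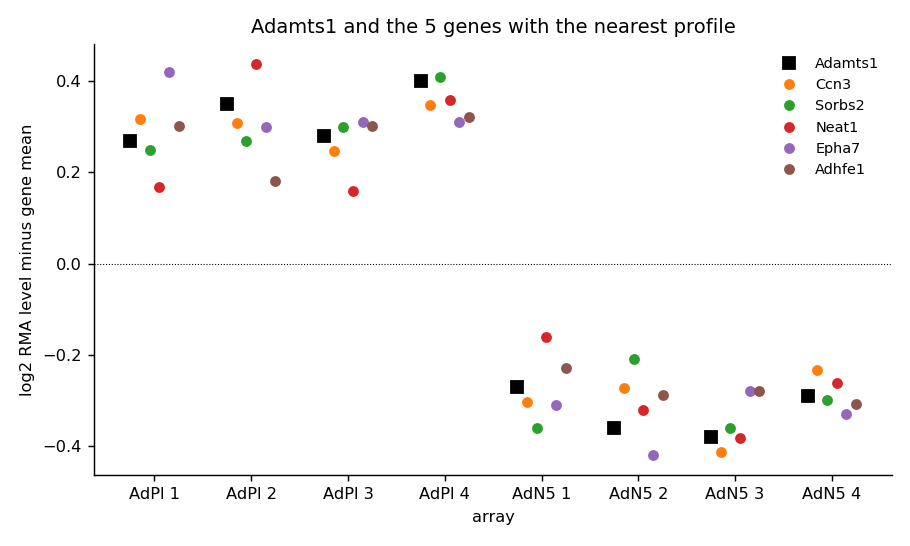
Log2 RMA level minus the gene's mean over 8 arrays (vertical axis) on each array for Adamts1 (black squares) and the 5 genes with the nearest profile (coloured circles). All 6 genes are above 0 on the AdPl arrays and below 0 on the AdN5 arrays, which follows from the choice of the 5 by likeness to Adamts1.

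None of the other 16 family genes, 9 proteases and 7 proteins without a protease domain, passed the test. The count of called genes was 0 of 16 in limma at an adjusted p of 0.05, and 3 of 16 had an unadjusted p under 0.05, as had 12.5% of all genes. These 16 are the family genes outside a list selected with this contrast in view, so their counts are a description too. Of the 16, 10 were below the median row of an array in the controls, where a difference is hard to see. Their median log2 fold change was 0.0026, against 0.0042 over all genes and -0.11 over the 9 analysed members. Adamts16, a protease tied to kidney and blood pressure, was highest at 0.38 (95% interval 0.10 to 0.66, adjusted p = 0.242 in limma) and Papln, encoding papilin, lowest at -0.37 (95% interval -0.80 to 0.059, adjusted p = 0.482 in limma), and both were dim. Also among the 3 were Adamtsl4 (0.25), whose protein binds fibrillin microfibrils, and Adamtsl5 (-0.22), named after their values were seen.

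**Figure D4:**
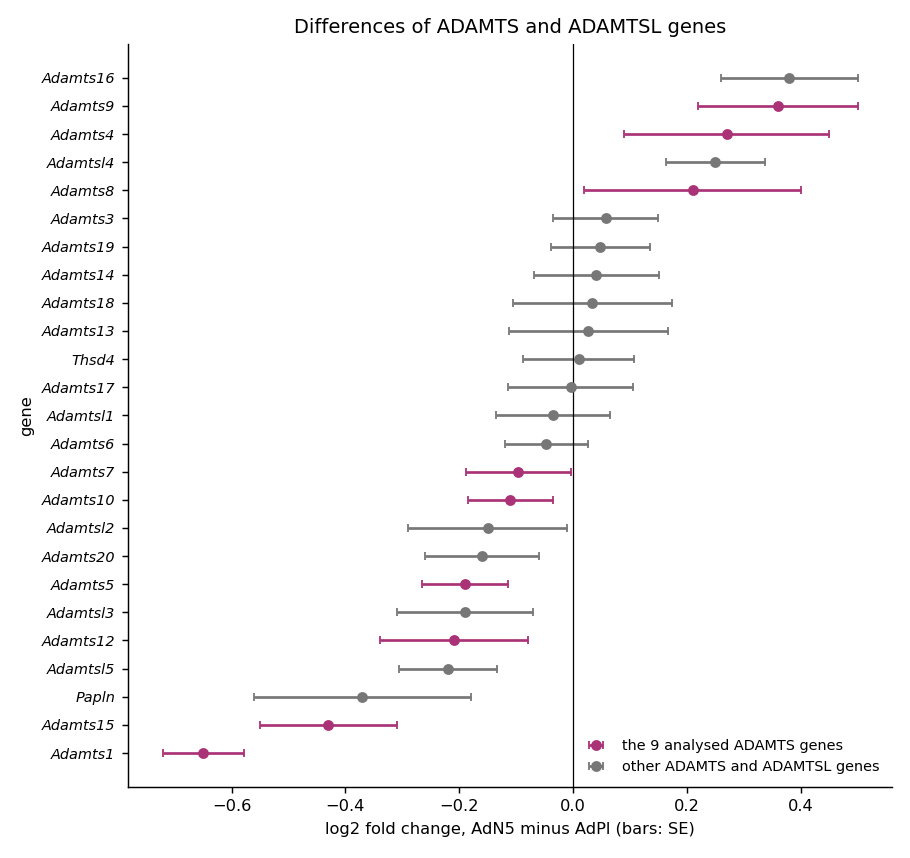
Log2 fold change, AdN5 minus AdPl (horizontal axis, bars are SE), of the 9 analysed ADAMTS genes (purple) and the 16 other ADAMTS and ADAMTSL genes (grey), ordered by value. Adamts1 at -0.65 lies furthest from 0.

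Genes of the substrates, processing, inhibition and clearance of ADAMTS proteases, and of the related ADAM family, were read from 5 lists. Of their 75 analysed genes 2 fell, 1 of the ADAM list rose and 72 did not pass. That is 3 of 75 called, beside 0.777% of all genes, and the median log2 fold change was 0.039 against 0.0042. These lists were written with earlier results of these data known. The counts and p-values of their genes are therefore a description, and no enrichment is read from them. Among the 16 hyaluronan and proteoglycan genes 0 were called and 2 had an unadjusted p under 0.05, beside 12.5% of all genes. The AdN5 arrays were below without overlap for 1 and above for 0, beside 4.56% and 4.22% of all genes. Vcan, the gene of versican, the main vascular substrate, was at 0.14 (95% interval -0.053 to 0.33, adjusted p = 0.566 in limma), with levels of 8.55, 8.59, 8.46 and 8.65 in the AdPl arrays and 8.82, 8.61, 8.79 and 8.59 in the AdN5 arrays; it was named for its role, outside the rule. Lum, encoding lumican, was the lowest of this list at -0.45 (adjusted p = 0.161 in limma), and Cd44, the hyaluronan receptor, the highest at 0.19 (adjusted p = 0.359).

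Of 25 glycoprotein and other substrate or cofactor genes 2 fell, 0 rose and 23 did not pass, beside 0.777% of all genes called, with a median of 0.043. An unadjusted p under 0.05 was found for 11 of the 25, and without overlap 8 had the AdN5 arrays above the AdPl arrays and 4 had them below, beside 12.5%, 4.22% and 4.56% of all genes. Efemp1, encoding the elastic fibre protein fibulin-3, fell by 0.36 on the log2 scale, from levels of 11.03, 10.98, 10.93 and 10.98 to 10.62, 10.61, 10.58 and 10.66 (adjusted p = 0.0466 in limma). Postn, the gene of the matricellular protein periostin, fell by 0.41, from a mean of 10.81 ± 0.062 to 10.40 ± 0.079 (SD, n = 4 each; adjusted p = 0.0466 in limma). For both genes the groups did not overlap, yet neither passed in any of 8 refits on 7 arrays, with adjusted p of 0.0903 to 0.154 for Efemp1 and of 0.0820 to 0.152 for Postn in limma. Tfpi2, an inhibitor of serine proteases, was highest at 0.51, with an adjusted p of 0.0508 in limma that did not pass.

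Fibrillar procollagens are the substrates of the ADAMTS branch that trims collagen precursors. Of 6 analysed genes 0 were called and 3 had an unadjusted p under 0.05, beside 12.5% of all genes. The AdN5 arrays were below without overlap for 3 and above for 0, beside 4.56% and 4.22% of all genes. Below 0 were 5 of the 6, as were 12096 of 24704 genes, and the median was -0.13. Col5a2 was lowest at -0.19 (adjusted p = 0.337 in limma) and Col2a1 highest at 0.039 (adjusted p = 0.968 in limma).

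Genes of maturation, inhibition and clearance numbered 17, of which 0 were called and 5 had an unadjusted p under 0.05, beside 12.5% of all genes, with a median of 0.099. Without overlap 5 had the AdN5 arrays above the AdPl arrays and 1 had them below, beside 4.22% and 4.56% of all genes. Mmp17, a membrane protease that activates ADAMTS4, was highest at 0.32 (adjusted p = 0.166 in limma), and Pcsk6, one of the furin-like convertases, lowest at -0.27 (adjusted p = 0.257 in limma). Timp3, the inhibitor of ADAMTS4 and ADAMTS5, was at -0.075 (95% interval -0.24 to 0.091, adjusted p = 0.750 in limma), with 11.19, 11.21, 11.02 and 11.21 in the AdPl arrays and 11.12, 11.07, 11.07 and 11.04 in the AdN5 arrays. Furin itself was at 0.058 (95% interval -0.091 to 0.21). The other TIMP genes were at 0.26 (Timp1, adjusted p = 0.156 in limma), 0.14 (Timp2, adjusted p = 0.412 in limma) and -0.04 (Timp4, adjusted p = 0.93 in limma). Timp1 and Timp2 had groups that did not overlap, and Timp4 was below the median row. Timp3 and Furin were named for their roles, and the other TIMP genes after their values were seen, all outside the rule.

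The ADAM proteins are membrane-bound relatives, many of which shed cell surface proteins. Of 11 genes 1 rose, 0 fell and 10 did not pass, beside 0.777% of all genes called. An unadjusted p under 0.05 was found for 2 of the 11, beside 12.5% of all genes, and the median was 0.053. The AdN5 arrays were above without overlap for 2 and below for 1, beside 4.22% and 4.56% of all genes. Adam8, a protease of leukocytes and activated cells, rose by 0.65 ± 0.10 (SE), from 6.44, 6.49, 6.30 and 6.47 in the AdPl arrays to 6.80, 7.08, 7.20 and 7.21 in the AdN5 arrays (adjusted p = 0.0283 in limma). The groups did not overlap, and of 8 refits on 7 arrays, 1 kept the call (adjusted p 0.0190 to 0.0918 in limma). Adam33, a smooth muscle and fibroblast protease known from asthma genetics, was lowest at -0.55, with an adjusted p of 0.0892 in limma that did not pass.

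**Figure D5:**
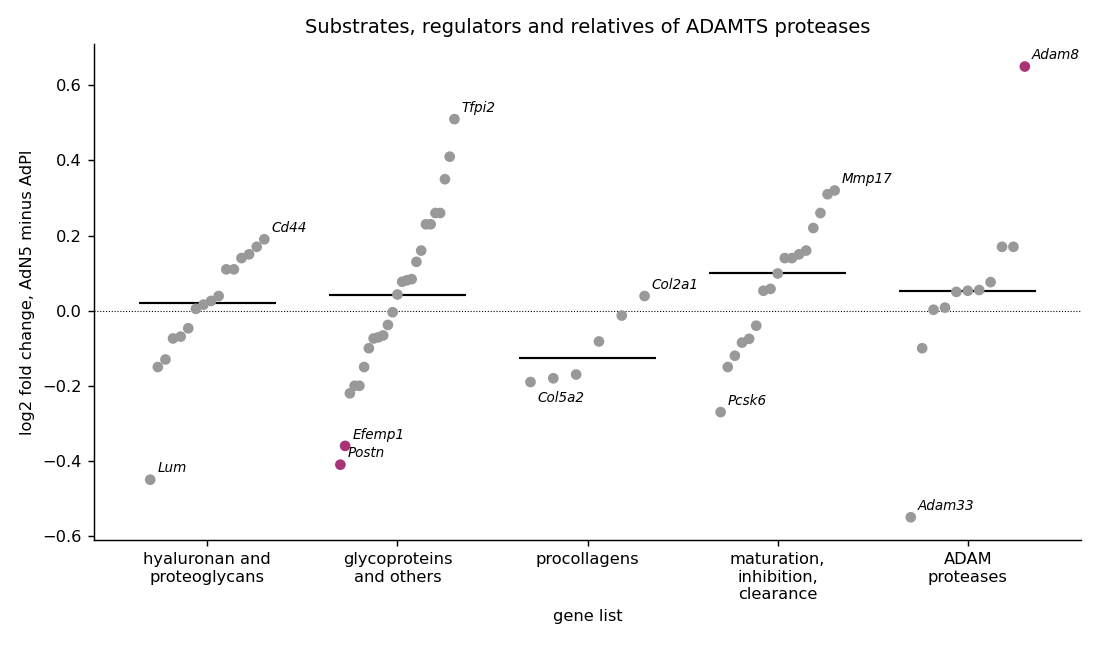
Log2 fold change, AdN5 minus AdPl (vertical axis), of 75 genes in 5 lists, sorted within each list; purple points passed an adjusted p of 0.05 in limma, grey points did not, and lines are list medians. The called genes are Efemp1 and Postn below 0 and Adam8 above 0.

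Macrophage markers differed between the same arrays. All 8 of them were higher in the AdN5 arrays, as were 12608 of 24704 genes. Adgre1, Cd68 and Laptm5, 3 of the 8, were called, beside 0.364% of all genes called higher. The marker lists were chosen with earlier results of these data known, so their counts are a description. The mean level over the macrophage markers ran from 6.06 to 6.29 in the AdPl arrays and from 6.45 to 6.66 in the AdN5 arrays. Of the 8 only Ptprc (3.34 in the AdPl arrays) was below the median row. Of 7 analysed fibroblast markers 5 were lower, as were 12096 of 24704 genes, and 0 were called. Their mean ran from 5.50 to 5.62 in the AdPl arrays and from 5.25 to 5.41 in the AdN5 arrays. Tcf21 (3.19) was below the median row, and Lum belongs to this list too. The mean over the 8 smooth muscle markers ran from 6.46 to 6.48 and from 6.43 to 6.61, and 0 were called, but its members went both ways. Acta2, smooth muscle actin, was at -0.30 (adjusted p = 0.113 in limma) and Cnn1, encoding calponin, at 0.33 (adjusted p = 0.296 in limma), each with groups that did not overlap; both were picked after their values were seen. The part of these cell types in the differences of Adamts1, Efemp1, Postn, Adam8 and the other genes above was not tested. In RNA from whole cultures, fewer cells of a type and less RNA per cell cannot be told apart. Of 6 endothelial and 6 chondrocyte markers 0 were called, with medians of 0.017 and -0.032.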

How the data were processed

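Expression was measured in 4 AdPl and 4 AdN5 arrays, grouped by the sample titles. The deposited values are log2 levels from RMA, run by the authors according to the submitters' processing notes; its version, the build and the annotation are not given in the sources used. Quantile normalisation within RMA hides a shift common to all genes, and RMA compresses differences of dim genes. The supplied platform table named 24705 of 25428 rows, and 723 stayed unnamed; where rows shared a symbol the brightest was kept, which left 24704 genes. A listed gene without a named row was not analysed here, nor were list genes without one.

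A linear model per gene was fitted to the 8 arrays (limma 3.58.1, R 4.3.3; moderated by eBayes, two-sided, no covariates), with Benjamini-Hochberg adjustment over 24704 genes and a threshold of 0.05. No dim gene was removed. The fit was tested on simulated data. The number of arrays limits the precision. Figures used Python 3.11.15 and matplotlib 3.10.9.

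The members, gene lists, markers and motifs were chosen with earlier results of these data known. Named genes are the 9 members, Nfat5, the called genes and both ends of each list, the 5 profiles nearest to Adamts1, and those said to be outside this rule. Promoter motifs were added after the arrays were examined. Alternatives changed the model (a block for replicate number, weighted arrays, robust eBayes with a trend), the scaling (quantiles again, or medians centred), the genes kept (above the lower quartile, or above the median) and the arrays used (each left out in turn, AdPl replicate 3 and AdN5 replicate 4 left out together), besides every row by itself and an adjusted p under 0.01.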

Additional observations from a re-analysis of the deposited data

Results flagged for a closer look

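In 3 of 36 groups of 4 arrays checked, an array lay far from the other 3 of its group by Dixon's criterion, which chance alone meets in about 1 of 20 groups. Adamts15 in AdPl replicate 2 was 4.59, against 4.39 to 4.42 in the other AdPl arrays. Epha7 in AdPl replicate 1 was 5.99, against 5.87 to 5.88, and Adhfe1 in AdPl replicate 2 was 6.99, against 7.11 to 7.13. Without AdPl replicate 2 the log2 fold change of Adamts15 was -0.38.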

How the results depend on the processing

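Of the members' log2 fold changes under alternatives, 123 kept their sign and side of the threshold, 2 lost a call, 1 gained one and 0 changed sign. These calls concern genes selected with the same contrast in view and are no measure of stability. The call of Adamts1 was lost with the replicate number as a block, at a log2 fold change of -0.65, and without AdPl replicate 3 and AdN5 replicate 4, at -0.67; the call of Adamts5 was gained under robust eBayes with a trend. With the replicate block 0 members and 0 partner genes were called, as were 14 of all genes. Deviations of equally numbered arrays correlated at 0.0547, 0.0510, -0.0795 and -0.0473, so no likeness between them was seen. These correlations cannot tell whether equally numbered cultures were prepared together, which the sources used do not give. Of all pairs of an AdPl and an AdN5 array, AdPl replicate 3 and AdN5 replicate 4 correlated most, at 0.148. The source of that likeness was not tested. Members called were 2 with trend and robust estimation and 0 with those arrays left out. Partner genes called were 3, against 0 with these arrays left out, 7 of 56 among genes above the median (4.02% of all such genes), 13 of 75 with trend and robust estimation (3.16% of all genes), 0 at an adjusted p under 0.01, and 0 to 1 with each array left out. Of the other ADAMTS and ADAMTSL genes 0 were called under every alternative run. The fits with an array left out have fewer samples; otherwise the cause was not tested. Dim genes limit what could be seen for Adamts8 and for 10 of the other 16 family genes.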
